A study of Mus musculus with 4 samples.

Results

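The control hearts of the study were described on their own: which mRNAs had the highest ribosome density per length in the heart of a young mouse, how abundant those mRNAs were, and which carried many or few ribosomes for their amount. The members are the libraries of the control group, 2 of the 4 libraries of the series, and the other libraries entered no value. They were chosen by their group label alone, so no measured value was used to pick them. The study took hearts on day 15 after birth from NAT10-FF mice and from NAT10-CKO mice, to find ribosome-protected mRNA fragments tied to NAT10, an RNA cytidine acetyltransferase. Both libraries used here carry the genotype label WT and library names with FF, which the design text gives for the NAT10-FF mice. Nothing in the labels names a promoter, a Cre line, a strain or a sex for them. About 100 mg of heart tissue was frozen per sample, cycloheximide (100 µg/mL) kept ribosomes where they were on the mRNA, RNase I trimmed the RNA outside them, and after rRNA depletion the protected fragments went into a library kit meant for small RNAs. All libraries carry the same batch label. The replicates, called WT replicate 1 and WT replicate 2, are not said to be separate animals, so any spread and any p-value stands for the difference between these 2 libraries alone, and that difference may be technical.

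The footprint level is the deposited FPKM of ribosome-protected fragments, a rate per length of gene and per size of library. The translation efficiency (TE) is the deposited ratio of the footprint level to an RNA level. Whether the length is that of the coding part or of the whole transcript is not known here. Comparisons of footprint level and TE between genes depend on that choice. The RNA level itself was recovered as FPKM divided by TE and is called the implied RNA level, also in FPKM. Wherever a pair of values is given, the first is WT replicate 1 and the second WT replicate 2. In the WT libraries all 29529 such quotients had at most 6 significant digits, as a printed table of FPKM values would (relative tolerance 1e-10). The origin of the RNA values, including the hearts they were measured in, is unstated in the labels. A TE of 0 beside a footprint level above 0 stood for 1987 genes in replicate 1 and 1809 in replicate 2, and was taken as missing.

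Ribosome profiling reads the position and number of ribosomes on mRNA, and the footprint level of a gene depends on how much mRNA there is and on how many ribosomes sit on each molecule. In the heart, much protein synthesis serves the contractile apparatus, the calcium store that triggers each beat, and the mitochondria that supply the energy. In the first weeks after birth, heart muscle cells of the mouse leave the cell cycle, exchange fetal for adult sarcomere isoforms and turn from glucose to fatty acids as the main fuel. Some mRNAs are held at low ribosome loads by features at their 5′ end: those of ribosomal proteins and elongation factors by a run of pyrimidines at the cap (the TOP motif), ferritin mRNA by an iron-responsive hairpin, and several stress mRNAs by short upstream reading frames.

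The tables list 55382 Ensembl genes. Footprint levels were above 0 for 16900 genes in replicate 1 and 16425 in replicate 2, and at least 10 FPKM for 9546 and 9147. Transfer RNA genes of the mitochondrial genome took 56.0% and 55.3% of the summed FPKM, and protein-coding genes with a symbol of their own (named genes) 26.5% and 29.7%, so shares are given of the summed FPKM of the 19806 named genes. The depth in reads is unknown, since FPKM keeps no read total, and no counting interval can be given. Genes with a footprint level of at least 10 FPKM and a TE above 0 in both libraries are called eligible: 8252 genes, of which 8009 are named. Across eligible genes, log2 values of the 2 libraries correlated at Pearson's r = 0.96 for footprints, 0.98 for the implied RNA level and 0.89 for TE. Genes are not independent replicates, and the correlation is a description. The log2 difference between the libraries had an SD of 0.50 for footprints, 0.35 for RNA and 0.60 for TE, so single footprint and TE values carry more error than RNA values.

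The labels name cardiomyocytes as the cell type, while the protocol describes pieces of heart, and markers of both kinds were present. The 12 markers of ventricular cardiomyocytes, all of them eligible, held 15.3% and 17.3% of the summed FPKM of named genes. Fibroblast markers (10 of 10 eligible) held 1.05% and 0.875%, pericyte and smooth muscle markers 0.261% and 0.256%, endothelial markers 0.140% and 0.114%, and macrophage markers 0.0306% and 0.0501%. Lymphocyte markers held 0.00247% and 0.00283%, and only Ptprc, the pan-leukocyte phosphatase, was eligible among them. Of the adipocyte markers, Adipoq, Plin1, Lep, Cidec and Retn were listed at 0 in both libraries, and the fatty acid binding protein Fabp4 at 3661 and 4154 FPKM made up nearly all of that list's footprints. Markers of stromal and vascular cells were thus present beside those of ventricular muscle. In such bulk tissue, fewer cells of a type and less RNA per cell cannot be told apart.

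The libraries differed from each other for a few groups of genes, and results on those groups rest on them. Atrial cardiomyocyte genes were higher in replicate 2. Myl7, the atrial regulatory myosin light chain, had 59.8 and 162 FPKM of footprints but an implied RNA level of 0.262 and 94.2 FPKM in replicates 1 and 2, and Myl4, the atrial essential light chain, had 41.3 and 136 FPKM of footprints and 2.50 and 45.0 FPKM of RNA. The implied RNA level was higher in replicate 2 for all 6 eligible atrial markers, with a median log2 difference of 1.38, and the footprint level for 5 of 6, with a median of 1.06. Over all eligible genes the medians were 0.12 for RNA and -0.12 for footprints. Genes of the cell cycle differed in footprints without a like difference in RNA. Of 16 eligible members, 1 had the higher footprint level in replicate 2, and the median log2 difference was -1.24 for footprints and 0.08 for RNA. Top2a, the topoisomerase of dividing cells, had 222 and 54.8 FPKM of footprints and 4.29 and 5.74 FPKM of RNA, and Rrm2, a subunit of the enzyme that makes deoxynucleotides, had 139 and 35.3 FPKM of footprints. All 9 eligible macrophage markers had the higher footprint level in replicate 2 (median log2 difference 0.67), while their RNA differed by -0.10. Among the immediate early genes, 1 of 12 eligible members was higher in replicate 2 in footprints (median -0.58). Fos and Nr4a1, transcription factor genes induced within minutes of a stimulus, were not eligible because replicate 2 lay under 10 FPKM: Fos had 44.1 and 4.65 FPKM of footprints and Nr4a1 59.3 and 3.92.

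The 5 eligible genes whose TE differed most between the libraries included differences of both kinds. For Myl7 and for Wif1, a secreted Wnt inhibitor, the RNA value differed most, with 0.367 and 6.36 FPKM of implied RNA and 21.1 and 19.6 FPKM of footprints for Wif1. Tnni1, the slow skeletal troponin I of the fetal heart, differed in both and in opposite directions, with 3.53 and 45.1 FPKM of RNA and 127 and 35.5 FPKM of footprints. For H2-K1, a class I histocompatibility gene, and Igtp, an interferon-induced GTPase, the footprints differed: 188 and 1967 FPKM for H2-K1 and 24.9 and 193 FPKM for Igtp. Their RNA levels were 38.4 and 43.6 FPKM and 2.92 and 2.57 FPKM, in that order. Which property of the hearts or the libraries lies behind these differences was not tested. 

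**Figure D1:**
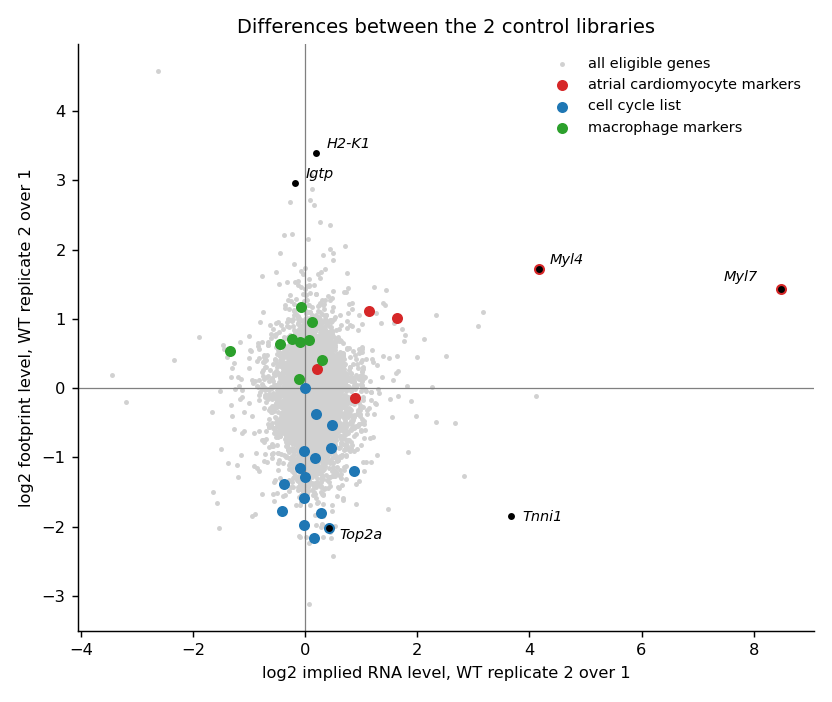
Log2 ratio of WT replicate 2 over WT replicate 1 for the implied RNA level (horizontal axis) and the footprint level (vertical axis); each grey point is an eligible gene, and coloured points are the eligible atrial cardiomyocyte markers, cell cycle list and macrophage markers. Atrial markers lie to the right, and most cell cycle genes lie low at an RNA ratio near 0. All 9 macrophage markers lie above 0 on the footprint axis, and 3 of them on the RNA axis as well.

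A small number of genes held a large share of the summed footprint FPKM, which is a sum of densities per length and not a share of ribosomes. The gene with the highest footprint level took 6.48% and 8.22% of the summed FPKM of named genes, the top 10 took 21.0% and 23.5%, the top 20 took 27.8% and 30.1%, and the top 100 took 46.1% and 49.1%. These shares were higher in replicate 2 in each case. Cardiac actin led in both libraries. Actc1 (ENSMUSG00000068614, chr2:114047282-114052875 in GRCm38.p6), the actin of the cardiac thin filament, had 132102 and 171574 FPKM of footprints, or 151838 ± 27911 (SD, n = 2), and 8239.5 and 8120.0 FPKM of RNA. Its skeletal counterpart Acta1, with a closely similar coding sequence, had 142 and 389 FPKM of footprints, and reads shared between the actin genes could move either value.

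Next came the calcium pump and the thick filament. Atp2a2 (chr5:122453513-122502225), which encodes SERCA2 and pumps calcium back into the sarcoplasmic reticulum, had 50034 and 56268.5 FPKM of footprints and 2919 and 2883 of RNA. Myh6, the fast alpha myosin heavy chain of the adult mouse heart, had 41849.6 and 49637 FPKM of footprints on more than 2-fold as much RNA (6716 and 6961). Myh7, the slow fetal counterpart, had 9.78 and 6.31 FPKM of footprints and 16.0 and 19.1 of RNA, so the adult isoform dominated in both measures. Tpm1, alpha-tropomyosin, followed with 41100.1 and 45865 FPKM, the ventricular myosin light chains Myl2 and Myl3 with 34760.2 and 36333 and with 24789 and 23339.8, the oxygen store Mb with 30396 and 32174, and the inhibitory troponin Tnni3 with 16601 and 15056.

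Energy metabolism made up most of the remaining top 20. Slc25a4, the ATP/ADP carrier of heart and muscle, had 28677 and 30684 FPKM of footprints, the ATP synthase alpha subunit Atp5a1 had 18577 and 20651, Hadha, the alpha subunit of the trifunctional protein of fatty acid oxidation, had 17691 and 19033, and Mdh1, the cytosolic malate dehydrogenase of the malate-aspartate shuttle, had 14241 and 15069. Acadl, a long-chain acyl-CoA dehydrogenase, had 9876.5 and 11387 FPKM and Atp5j, a coupling subunit of ATP synthase, had 10038.5 and 9327. Genes of the mitochondrial genome itself supplied mt-Co1, mt-Nd5, mt-Nd2 and mt-Nd6, between 12415 and 25935 FPKM. Pln, the SERCA2 inhibitor phospholamban, had 10964 and 9738 FPKM. The only gene of the top 20 made chiefly outside the muscle cell was Col3a1, the type III collagen of fibroblasts, at 13280.0 and 11093 FPKM.

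**Figure D2:**
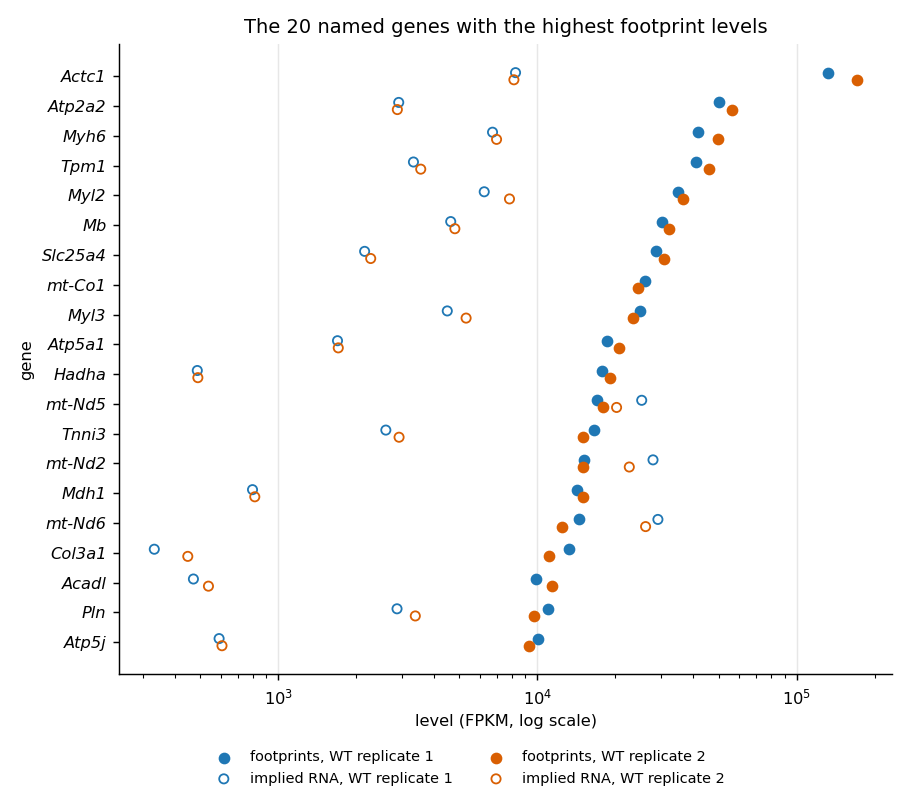
Levels of the 20 named genes with the highest mean footprint level, on a log axis in FPKM; filled points are footprints and open points the implied RNA level, in blue for WT replicate 1 and orange for WT replicate 2. Actc1 stands apart at 132102 and 171574 FPKM; mt-Co1 has no open point because its TE was listed at 0, and the RNA of mt-Nd5, mt-Nd2 and mt-Nd6 lies above their footprints.

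By implied RNA level the order was different. The first 6 of the 10 highest were genes of the mitochondrial genome: mt-Cytb at 46807 and 41396 FPKM, mt-Nd1 at 34633 and 33777, then mt-Nd6, mt-Nd2, mt-Nd5 and mt-Nd4. Actc1, Myl2, Myh6 and Myl3 followed. Actc1 and Myl2 differed by less than 2-fold in RNA (8239.5 and 8120.0 against 6238 and 7808 FPKM) but more than 3-fold in footprints, so a part of the lead of Actc1 lay in its TE. Between the 5th and the 95th percentile of eligible genes, RNA spanned 48.4-fold and footprints 43.7-fold.

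Some sarcomere genes carried a CArG box within the stretch from 250 bases before to 50 bases after their RefSeq start. The CArG box is the element bound by serum response factor (SRF), a regulator of muscle genes, and it was searched on both strands as CC, then 6 bases that are each A or T, then GG. It was found in 6 of the 27 sarcomere genes with a window (22.2%), against 425 of 27025 windows of all genes (1.57%) and 1.61% of eligible named genes. The sarcomere genes were listed for their function and many are known SRF targets, so the share describes them and nothing else was drawn from it. The boxes, in capitals, are shown with their flanks because the set includes the gene with the most footprints, in the gene's own direction, 5′ to 3′, from RefSeq on GRCm38.p6. In Actc1 the box begins 47 bases before the start, in Myl3 85, in Acta1 73, in Myom1, an M-band protein, 99, in Ldb3, a Z-disc protein, 35, and in Myl7 61.
Actc1, chr2:114052903-114052932, minus strand: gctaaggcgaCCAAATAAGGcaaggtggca
Acta1, chr8:123894829-123894858, minus strand: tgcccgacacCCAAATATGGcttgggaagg
Myl3, chr9:110763583-110763612, plus strand: gagccaatgcCCTTTTATGGccctgtccct
Myl7, chr11:5898824-5898853, minus strand: ccattcctctCCTTATTTGGgcctctgggt
Myom1, chr17:71019448-71019477, plus strand: gccttcctggCCATAAAAGGctggctgtgg
Ldb3, chr14:34588697-34588726, minus strand: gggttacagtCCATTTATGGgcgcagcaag
The genes with a box ranged widely in ribosome use: Actc1 lay above the library median of TE by 1.66 and 2.33 on the log2 scale in replicates 1 and 2, Myl3 by 0.13 and 0.06, Ldb3 lay at -2.46 and -1.69 and Myom1 at -0.28 and -0.32. Srf itself had 12.7 and 31.9 FPKM of footprints on 53.2 and 70.2 of RNA.

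TE was then compared across genes. The median deposited TE of eligible genes was 5.06 in replicate 1 and 4.21 in replicate 2, a scale that depends on both kinds of library, so each log2 TE was taken relative to its library median and is called centred TE. A gene was called high where its TE lay at least 2-fold above the library median in both libraries, and low where it lay at least 2-fold below in both. By this rule 1098 of 8252 eligible genes were high (13.3%) and 1326 were low (16.1%), and 5828 were neither. Without centring, with cuts at a TE of 2 and of 0.5, the split would have been 6488 high and 83 low, so high and low mean high and low relative to other eligible genes. The departure from the median was also tested with limma across all eligible genes with Benjamini-Hochberg adjustment, which called 2356 genes above (28.6%) and 2284 below (27.7%) at an adjusted p of 0.05. All 1098 high and all 1326 low genes were among those called. Both rules use the same 2 values of each gene, so this overlap is no separate evidence for the calls. The median standard error of centred TE was 0.25.

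Ribosome use varied less between genes than RNA did. Centred TE ran from -2.16 at the 5th percentile to 1.75 at the 95th, a 14.9-fold span, and the interquartile range from -0.79 to 0.74, a 2.90-fold span. Footprint and RNA levels correlated across eligible genes at r = 0.74, and RNA level and TE at -0.38, a value that also reflects that RNA is the denominator of TE. The floor of 10 FPKM acts on the same relation: a gene of low RNA level passes it only with a high TE. In the lowest 10% by RNA level (median 2.55 FPKM) 34.0% of genes were high and 0 were low, while in the highest 10% (median 123 FPKM) 13.4% were high and 33.1% low. Shares of high and low genes are therefore not comparable between genes of low and of high RNA level. Counts of high and low members of the gene lists below are to be read against 13.3% and 16.1% over all eligible genes. The share at the RNA level of a list can differ from these.

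**Figure D3:**
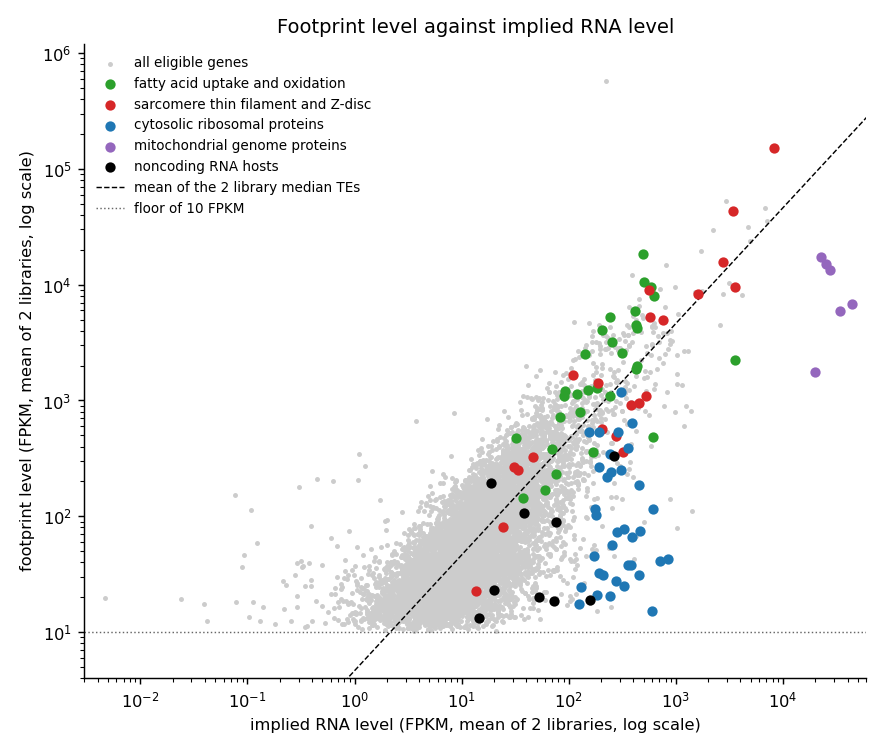
Footprint level against implied RNA level for eligible genes, means of both WT libraries on log axes in FPKM; the dashed line is the mean of both library medians of TE and the dotted line the floor of 10 FPKM. Fatty acid genes mostly lie above the dashed line, cytosolic ribosomal protein genes and genes of the mitochondrial genome below it, and the grey point highest on the plot is the microRNA gene Mir6236.

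The named genes with the highest TE came from several compartments. Slirp, a mitochondrial protein that stabilises mitochondrial mRNAs, led at 19.6-fold above the median: 710.0 and 847 FPKM of footprints stood on only 8.62 and 8.50 FPKM of RNA (centred TE 4.03 and 4.57, limma adjusted p = 5.1e-05). Fcgrt, the neonatal Fc receptor that rescues antibodies and albumin from degradation, was 10.2-fold above, with 1384 and 2562.5 FPKM on 39.9 and 40.3 of RNA. Hadha was 8.14-fold above (centred TE 2.84 and 3.21, limma adjusted p = 0.00031) and was the only member of the top 20 by footprints among the 15 of highest TE. Lnpep, a membrane aminopeptidase that travels with the glucose transporter GLUT4, had 724 and 651 FPKM on 16.4 and 17.8, and Tm9sf2 and Yipf4, membrane proteins of the endosome and Golgi, had 1757 and 1881 FPKM on 52.5 and 55.9 and 838 and 770.2 FPKM on 23.4 and 25.8. Of the others, Sgcd, a sarcoglycan of the muscle membrane, Soat1, which makes cholesterol esters, Dpysl2, Ptgr1, Slit2, Pnrc2, Ndufb1-ps and Fv1 lay between 6.86-fold and 10.1-fold above the median. Ptpn6, a phosphatase of blood cells, also belonged to the 15, but its footprint level was 37.1 and 143 FPKM, with the higher value in replicate 2 as for the macrophage markers.

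At the other end, abundant housekeeping mRNAs had few footprints. Rps2, a protein of the small ribosomal subunit, lay 180.4-fold below the median, with 16.9 and 13.8 FPKM of footprints on 577 and 615 FPKM of RNA (centred TE -7.43 and -7.56, limma adjusted p = 2.7e-05). Ribosomal protein genes were the most frequent kind among the 15 lowest, with Rps2, Rplp1, Rps25, Rpl7a, Rpl26, Rps3a1 and Rpl32. The ubiquitin gene Ubb was among them too, and so were Actg1, the cytoplasmic gamma-actin, with 14.3 and 18.4 FPKM on 251 and 242; Tpt1, with 88.2 and 70.9 on 1048 and 986; the glycolytic enzyme Gapdh, with 129.8 and 94.3 on 1532 and 1308; mt-Nd4, with 2024 and 1522 on 21487 and 18270.2; and the beta-globin gene Hbb-bs, with 46.8 and 38.0 on 308 and 512. Gapdh thus had more RNA than Hadha (488 and 490.0 FPKM) and far fewer footprints. Many of these genes have near-identical copies in the genome. RefSeq names 12 processed copies for Rps2, 14 for Rpl7a, 7 for Tpt1 and 3 for Gapdh, and how the authors' mapping treated short footprints that fit several places is unstated, so these values are uncertain, as are those of the near-identical globin genes.

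Genes with copies were more often low over all eligible genes. Of 8080 genes without a processed copy named by RefSeq, 15.4% were low; of 127 genes with 1 such copy, 46.5% were low; and of 45 genes with 2 or more, 57.8% were low. These groups also differed in RNA level, with medians of 12.9, 35.9 and 135 FPKM, in that order. In the 10% of eligible genes with a median RNA level of 44.3 FPKM, 25.5% were low. In the highest 10% (median 123 FPKM) 33.1% were low, so part of the difference between the groups goes with RNA level. Copies were counted by RefSeq pseudogene symbols built on the symbol of the gene. RefSeq symbols do not name every copy, and a copy without such a symbol is not counted. How much of the low TE of these genes comes from the handling of copies was not tested beyond these values.

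Cytosolic ribosomal proteins were low as a group. All 66 members with a TE in replicate 1 and all 62 in replicate 2, of 79, lay below the library median, 63 and 59 of them by at least 2-fold, and the median centred TE over these was -6.35 and -5.99. Only 35 of 79 were eligible; of these 32 were low and 0 high, and limma called 33 below and 0 above. Their RNA was abundant, with a median of 219.7 and 283 FPKM against 12.6 and 13.6 over all eligible genes, while their median footprint level was 6.63 and 8.04 FPKM and 9 members were listed at 0 in both libraries. Together they held 3.25% and 3.66% of the implied RNA of named genes but 0.330% and 0.306% of their footprints. The members spanned a wide range: Rpl8 had 1173 and 1188 FPKM on 277 and 339 of RNA and a centred TE of -0.26 and -0.27, Rps3 had 604 and 472 on 147 and 162 (-0.30 and -0.53), Rps9 640.3 and 628 on 347 and 426 (-1.45 and -1.52), and Rps25 19.8 and 30.2 on 298 and 358 (-6.25 and -5.64). Among the 10 eligible members without a named copy, 8 were low with a median centred TE of -2.38, and among the 25 with a copy 24 were low with a median of -4.78.

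**Figure D4:**
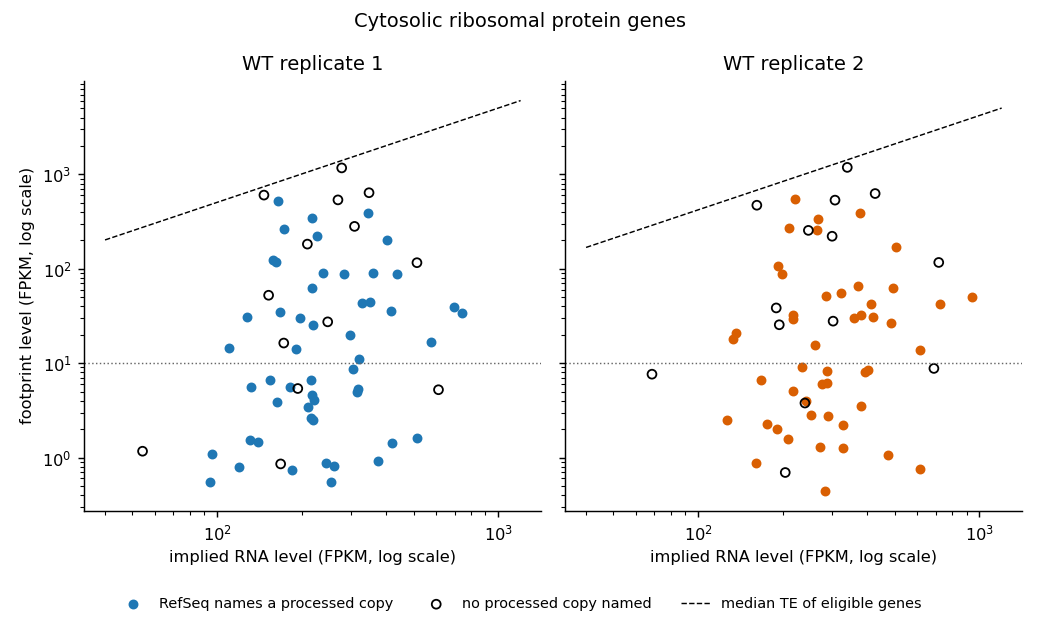
Footprint level against implied RNA level of cytosolic ribosomal protein genes with a TE, on log axes in FPKM, one panel per WT library; filled points (blue for replicate 1, orange for replicate 2) are genes with a processed copy named by RefSeq, open points genes without, the dashed line is the median TE of eligible genes and the dotted line 10 FPKM. Every point lies below the dashed line in both panels, and the RNA levels run from 54.4 to 740.1 FPKM in replicate 1 and from 68.6 to 938 FPKM in replicate 2.

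Pyrimidine runs at the annotated start were looked for because ribosomal protein mRNAs are known for the TOP motif. A run of at least 8 bases that are each C or T, on the gene's own strand, between 20 bases before and 40 bases after the RefSeq start was present in 39 of 58 ribosomal protein genes with a window (67.2%), against 21.8% of 27025 windows of all genes. It was present in 20.8% of high TE genes, 22.3% of low TE genes and 20.6% of eligible named genes as a whole. The longest run of each window is in capitals for members of very low and of higher TE, and for Slirp and Hadha, which had high TE, 5′ to 3′ from RefSeq on GRCm38.p6. The run is 21 bases in Rpl7a, 14 in Rpl26, 12 in Rps25, 8 in Rps2, 6 in Rps3a1, 9 in Rps9, 5 in Rps3, 4 in Rpl22, 7 in Slirp and 9 in Hadha.
Rpl7a, chr2:26910788-26910817, plus strand: cacaaTTCCCTCTTCTTTCTTTCTCCagca
Rpl26, chr11:68901576-68901605, plus strand: gtcgcgtgtagTTCTCTTTCCTTTTgcggc
Rps25, chr9:44407694-44407723, plus strand: TCCTTTTTTTCCgacatcttagcgaggctg
Rps2, chr17:24720073-24720102, plus strand: ggagcactataaattgTCCCTTCCgcggcg
Rps3a1, chr3:86142629-86142658, minus strand: agggtcacgtagacggcgCTCCCCgcccgg
Rps9, chr7:3704024-3704053, plus strand: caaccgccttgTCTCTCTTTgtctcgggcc
Rps3, chr7:99483674-99483703, minus strand: cgcggcgtcattgCTCCCgccctatatacc
Rpl22, chr4:152325706-152325735, plus strand: ccgaCTTCgccctgggaaaagcaatagctg
Slirp, chr12:87443876-87443905, plus strand: tggcaggTTCTTCCggggtcacgactccag
Hadha, chr5:30154946-30154975, minus strand: aagagctttcgTCCTCTTCTgctcaagatg
Of the members of very low TE, Rpl7a, Rpl26 and Rps25 have the longest runs printed here, Rps2 has one shorter than that of Rps9, and Rps3a1 has one of only 6 bases; Rps3 and Rpl22, of higher TE, have short ones, and Hadha has a run as long as that of Rps9. These were chosen after their values were seen. Over the 6471 eligible named genes with a window, the median centred TE was -0.02 where the longest run was under 5 bases, 0.02 at 5 to 7, -0.05 at 8 to 11 and 0.07 at 12 or more. These medians did not rise or fall steadily with run length, and their differences were not tested.

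Other mRNAs with a known TOP motif were mixed. Of 18 eligible members, 8 were low and 0 high, limma called 11 below and 3 above, and the median centred TE was -1.18, or -0.76 without genes that have a named copy. The low ones included 3 elongation factor genes. Eef1a1, which brings transfer RNA to the ribosome, had 921 and 675 FPKM on 886 and 1089 of RNA (centred TE -2.28 and -2.76), its muscle counterpart Eef1a2 had 132 and 149 on 335 and 292 (-3.68 and -3.04), and Eef1g lay at -4.46 and -4.94. Vim, the filament protein of stromal cells, lay above the median at 1.27 and 0.47 (limma adjusted p = 0.014), and Rack1, a scaffold protein of the small ribosomal subunit, at 0.66 and 0.66 (limma adjusted p = 0.011). Translation initiation factors showed no common direction: of 30 eligible members 4 were high and 4 low. Eif2b3, part of the exchange factor that recharges eIF2, was the highest at 1.71 and 1.38, Eif3a, the largest subunit of eIF3, lay at 1.67 and 1.37, and Eif4a1, the helicase of the cap-binding complex, at -4.65 and -4.68 with 24.8 and 23.7 FPKM on 123 and 144. Eif4g2, which supports initiation on some mRNAs independently of the cap-binding protein, had the most footprints of the list (807 and 809 FPKM) and a centred TE of -0.56 and -0.28.

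The sarcomere was rich in footprints but unremarkable in TE. Thin filament and Z-disc genes held 11.4% and 13.4% of the summed FPKM of named genes, and thick filament genes with titin 5.26% and 5.48%. Of 21 eligible thin filament and Z-disc genes, 4 were high and 2 low, and limma called 9 above and 8 below. The high ones were Actc1, Tpm1 (1.29 and 1.62), the Z-disc crosslinker Actn2 (1.70 and 1.90) and the filament-end cap Tmod1 (1.69 and 1.73). The Z-disc adaptors Ldb3 (-2.46 and -1.69) and Pdlim5 (-1.48 and -1.27) were low. Of 10 eligible thick filament genes, 0 were high and 2 low, with a median centred TE of 0.34 that turned to -0.27 with a floor of 50 FPKM and to -0.13 from replicate 2 alone. The low ones included Mybpc3, cardiac myosin-binding protein C, with 1344 and 1167 FPKM on 611 and 625 of RNA. Titin, which spans the sarcomere from Z-disc to M-band, had 511 and 521 FPKM on 51.2 and 44.0 and a centred TE of 0.98 and 1.49 (limma adjusted p = 0.0017). Myosin subunits lay near the median: Myh6 at 0.30 and 0.76, Myl2 at 0.14 and 0.14 and Myl3 at 0.13 and 0.06, and none of the 3 passed limma's test.

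Calcium handling followed the same pattern, with single genes far from the rest. Of 16 eligible members, 3 were high and 2 low, and the median centred TE of 0.34 turned to -0.072 with a floor of 50 FPKM. Atp2a2 was high at 1.76 and 2.21 (limma adjusted p = 0.0038), while its inhibitor Pln lay at -0.41 and -0.55 (limma adjusted p = 0.1). The RNA of both was alike, 2919 and 2883 FPKM for Atp2a2 and 2875 and 3382 for Pln, and the footprint level of Atp2a2 was more than 4-fold that of Pln. Calm2, a gene of the calcium sensor calmodulin, had 147 and 139 FPKM on 86.7 and 102 of RNA and was low (-1.58 and -1.62). Jph2, which ties the reticulum to the cell membrane, was low as well at -1.67 and -1.44, and Casq1, a calsequestrin best known from skeletal muscle, was high at 2.09 and 2.15. Ryr2, the calcium release channel, lay near the median at 0.32 and 0.23.

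Ion channels and pumps included more low than high genes. Of 20 eligible members, 7 were low and 3 high, limma called 8 below and 4 above, and the median centred TE was -0.31. Taken from each library alone, that median was -0.064 and -0.29. The potassium channel genes Kcnh2 (-1.54 and -2.33), Kcnip2 (-2.17 and -2.95), Kcnj5 (-1.99 and -1.62) and Kcnj11 (-1.34 and -1.13) and the pacemaker channel Hcn2 were low. The sodium-calcium exchanger Slc8a1 was high, with 952 and 1188 FPKM on 50.8 and 47.0 (1.89 and 2.58), and so were the potassium channel Kcnj2 (1.24 and 1.71) and Abcc9 (1.41 and 1.12), a sulfonylurea receptor also found in pericytes.

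Fuel oxidation genes lay on the high side. Of 30 eligible genes of fatty acid uptake and oxidation, 13 were high and 3 low, limma called 19 above and 5 below, and the median centred TE was 0.98. They held 4.38% and 4.89% of the footprints of named genes. Hadha, Hadh, which carries out the same oxidation step for shorter chains (2.13 and 2.35), Acadl (2.05 and 2.33), the electron carrier Etfdh (1.80 and 2.36), the thiolases Acat1 (1.66 and 2.22) and Acaa2 (1.62 and 2.07), the fatty acid transporter Cd36 (1.14 and 1.79) and lipoprotein lipase Lpl (1.34 and 1.91) were among the high ones. The carnitine palmitoyltransferases Cpt2 (1.13 and 1.64) and Cpt1a (1.76 and 1.66) were high, while Cpt1b, the muscle form with more RNA, lay at -0.27 and 0.21. The low ones were the fatty acid binding protein Fabp3, with 2089.7 and 2401 FPKM on 3230.3 and 3843 of RNA, Hadhb, and Eci1. Hadha and Hadhb encode the subunits of the trifunctional protein, which joins them in equal number. Their RNA was alike, 488 and 490.0 FPKM for Hadha and 607 and 609 for Hadhb, but their footprints were 17691 and 19033 against 447 and 522 FPKM, a centred TE of 2.84 and 3.21 against -2.78 and -2.30. By the gene's symbol, RefSeq names 1 processed copy of Hadhb and none of Hadha, and the part of such a copy in this gap was not tested. Fabp3 also has 1 named processed copy, and its part in the low TE of Fabp3 was not tested.

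The citric acid cycle and pyruvate oxidation gave a like picture. Of 26 eligible members, 9 were high and 4 low, limma called 19 above and 4 below, and the median centred TE was 0.90. The high ones included fumarase Fh1 (2.31 and 2.21), the shared dehydrogenase subunit Dld (2.04 and 2.67), Mdh1 (1.82 and 2.14), and Dlst (1.69 and 2.21) and Ogdh (1.37 and 1.71) of the oxoglutarate dehydrogenase complex. Sucla2, a subunit of succinyl-CoA ligase, was far below, with 32.6 and 58.8 FPKM on 268 and 262 of RNA (-5.38 and -4.23), while its partner Suclg1 lay at 0.74 and 0.96. RefSeq names no processed copy of Sucla2 by the gene's symbol, and copies under other symbols were not counted. Got2 and the pyruvate carrier subunit Mpc1 were also low. Of 19 eligible genes of glycolysis and glucose uptake, 6 were high and 3 low. Isoforms of the same step parted here: the muscle enolase Eno3 had 8899 and 9510.4 FPKM on 730.3 and 678 of RNA (1.27 and 1.74) and Eno1 had 165 and 133 on 138 and 154 (-2.08 and -2.29), and the phosphofructokinases Pfkm, Pfkl and Pfkp were all high. The lactate dehydrogenase Ldha was low (-1.59 and -1.12), and Ldhb lay at -0.20 and 0.27. Pgk1 had 181 and 164 FPKM of RNA but 0.753 and 1.93 FPKM of footprints and was not eligible. Among the 19 eligible glycolysis genes, 3 have a processed copy named by RefSeq. The list's median centred TE was 0.57, and 0.82 without genes with a named copy. The part of copies in the differences between isoforms was not tested.

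Respiratory chain subunits ranged from high to very low within each complex. Of 36 eligible nuclear genes of complex I, 8 were high and 5 low, and the median centred TE of -0.13 was -0.36 and 0.18 from each library alone. Without genes with a named processed copy, 3 of the 36, that median was 0.098. Ndufa4, with the most footprints of the list (5906 and 5313 FPKM), lay near the median at 0.24 and 0.22. The core subunit Ndufv1 was high (1.41 and 1.59), as was Ndufc1 (1.95 and 2.11), while the acyl carrier Ndufab1 (-4.64 and -4.10) and Ndufa12 (-4.31 and -4.15) were low. Of 33 eligible genes of complexes III to V, 4 were high and 11 low, limma called 5 above and 16 below, and the median was -0.45. Their median RNA level was 745 and 721 FPKM. Among all eligible genes 13.3% were high and 16.1% low, but 13.4% and 33.1% in the highest 10% by RNA level. The low count was thus near the share at that RNA level. Atp5a1, Atp5j, Cox7b (1.80 and 1.90) and the core protein Uqcrc2 (1.75 and 2.11) were the high ones. The lowest was Uqcrb, with 78.1 and 98.7 FPKM on 504 and 494 of RNA (-5.03 and -4.40), and Atp5h (-3.21 and -3.15) and Cox6c (-2.96 and -2.98) were low too. Of the 11 low genes, RefSeq names a processed copy by the gene's symbol only for Cox5b. Copies under other symbols were not counted, so shared reads remain possible for the others. Atp5g1, an ATP synthase ring subunit with 1731 and 1780.3 FPKM of RNA, and Cox7c, with 887 and 914, had 13.8 and 2.64 and 10.9 and 8.80 FPKM of footprints and did not reach the floor.

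All 6 eligible genes of the mitochondrial genome were low, with a median centred TE of -3.99. These mRNAs are translated by mitochondrial ribosomes, whose footprints may be recovered differently, so their TE is not on the same footing as that of nuclear genes. mt-Cytb, of complex III, had 8056 and 5693 FPKM of footprints on 46807 and 41396 of RNA, and mt-Nd5, of complex I, had 16982 and 17863 on 25272 and 20217. mt-Nd6 lies on the opposite strand to most of the others, and without the strand setting its reads cannot be told from antisense ones. Of the 13 protein genes, mt-Co2, mt-Co3, mt-Atp6, mt-Atp8 and mt-Nd4l were listed at 0 in both libraries. The proteins of the mitochondrial ribosome were spread about the median: of 76 eligible, 16 were high and 12 low, with a median of -0.05. Mrpl19 (2.23 and 2.52) and Mrpl49 (1.99 and 2.97) stood at the top and Mrpl33 (-4.71 and -4.49) at the bottom, and Mrps21 had the highest footprint level (1031 and 654 FPKM) with a centred TE of 0.25 and -0.24. Unlike cytosolic ribosomal proteins, they thus did not share a direction, though the difference between the lists was not tested.

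Energy transfer and carrier genes held 4.37% and 4.65% of named footprints. Of 13 eligible members of the list of creatine kinases, myoglobin, natriuretic peptides and mitochondrial carriers and pores, 5 were high and 3 low. Ckmt2, the mitochondrial creatine kinase, was high (1.15 and 2.06) and Ckm, the cytosolic muscle form, low (-1.30 and -1.04). The ATP/ADP carriers parted in the same way, Slc25a4 at 1.40 and 1.68 and Slc25a5, with 159 and 137 FPKM on 266 and 288 of RNA, at -3.08 and -3.15, and of the outer membrane pores Vdac1 and Vdac2 were high and Vdac3 low (-2.06 and -2.04). Nppa, the atrial natriuretic peptide, was high at 1.89 and 2.13 in both libraries although its footprints (565 and 1223 FPKM) and RNA (30.2 and 66.4) were both about 2-fold higher in replicate 2. Of the 13 eligible members of this list, 3 have a processed copy named by RefSeq. The part of copies in the differences between related genes was not tested.

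**Figure D5:**
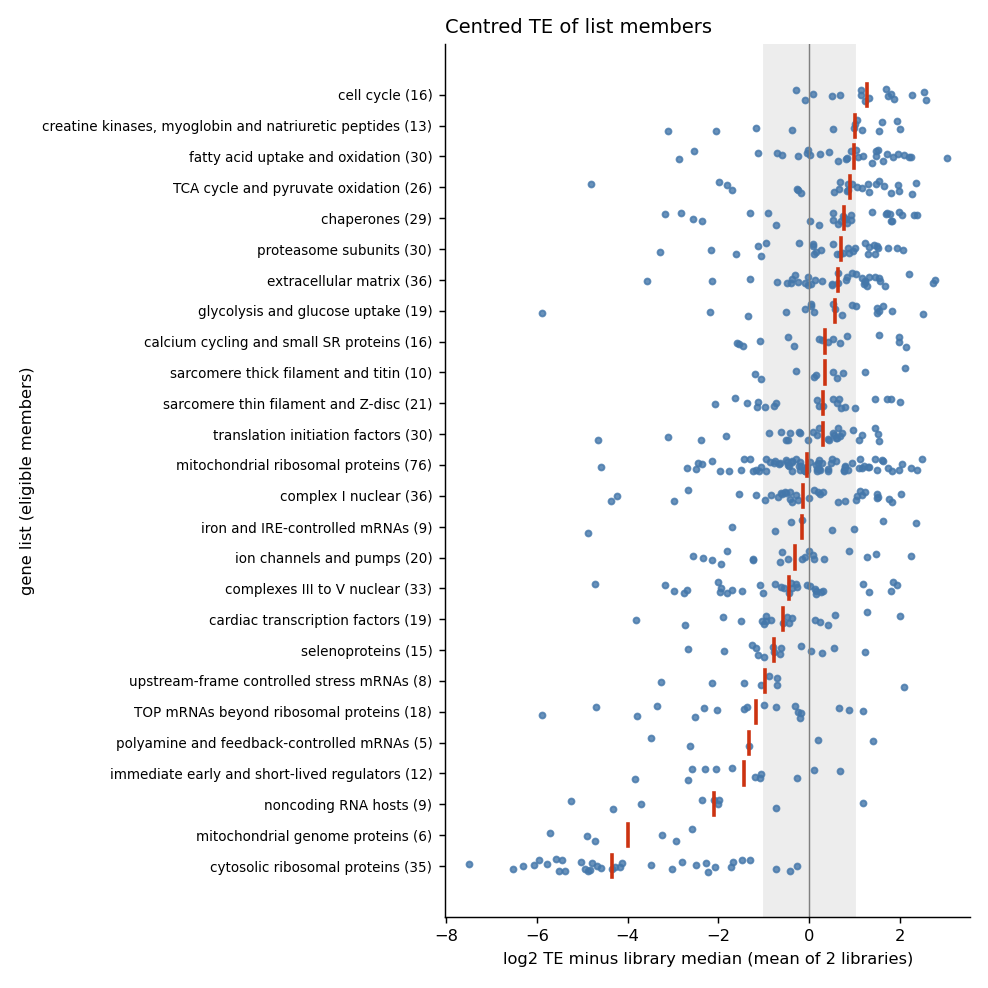
Centred log2 TE (mean of both WT libraries) of the eligible members of each functional list; each point is a gene, the red bar is the list's median, the number of eligible members is in parentheses and the grey band spans 2-fold below to 2-fold above the library median. Medians run from 1.26 for the cell cycle list, 1.00 for the list of creatine kinases, myoglobin and natriuretic peptides and 0.98 for fatty acid genes to -4.34 for cytosolic ribosomal proteins.

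Protein folding and turnover genes leaned to the high side. Of 29 eligible chaperones, 10 were high and 4 low, limma called 18 above and 7 below, and the median centred TE was 0.76. Chaperones of the endoplasmic reticulum, Hsp90b1 (2.39 and 2.34), Hspa5, Calr (1.87 and 2.08) and Canx (1.82 and 1.74), and the chaperonin subunits Cct6a (2.16 and 2.47) and Cct8 (1.54 and 2.12) were high. The cytosolic Hsp90 gene Hsp90ab1 had the most footprints of the list, 4714 and 3949 FPKM, and was high too (1.47 and 1.29). Hspa8, the constitutive cytosolic Hsp70, was low, with 344 and 243 FPKM on 382 and 360.2 of RNA (-2.49 and -2.64), as was the heart small heat shock protein Hspb7 (-3.77 and -2.59). Of 30 eligible proteasome subunits, 10 were high and 4 low, with a median of 0.71. Psmd12 (2.09 and 2.02) and Psmd14 (2.10 and 1.75) of the regulatory cap were the highest and Psma3 (-3.18 and -3.38), an alpha ring subunit, the lowest, although their products enter the same particle. Psma6, another alpha ring subunit, had the most footprints (1128 and 1084 FPKM) and was high (1.47 and 1.37). RefSeq names a processed copy for 6 of the 29 eligible chaperones and 3 of the 30 eligible proteasome subunits. The part of copies in these values was not tested.

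Collagens and other secreted matrix proteins of fibroblasts were among the genes of high TE. Of 36 eligible extracellular matrix genes, 12 were high and 2 low, limma called 20 above and 4 below, and the median was 0.64. Col1a1 had 5272 and 4013 FPKM of footprints on 124 and 182 of RNA (3.07 and 2.39), Col3a1 lay at 2.98 and 2.56 and Col1a2 at 2.51 and 1.90, the chains of the main fibrillar collagens. Decorin, Dcn, a proteoglycan of the same cells, had 278 and 301 FPKM on 242 and 318 of RNA and was low (-2.14 and -2.15), as was the protease inhibitor Timp3 (-3.67 and -3.48). Elastin, Eln, with 966 and 998 FPKM, lay near the median at 0.05 and -0.25.

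Regulatory genes lay mostly below the median. Of 19 eligible cardiac transcription factors, 4 were low and 1 high, limma called 10 below and 2 above, and the median was -0.58. Their median RNA level was 27.4 and 29.1 FPKM. In the 10% of eligible genes with a median RNA level of 28.1 FPKM, 26.5% were low and 10.4% high, with a median of -0.26. The low count was thus not above that share. Nkx2-5, a founding factor of the heart field, had 54.1 and 64.1 FPKM on 43.3 and 53.1 of RNA (-2.02 and -1.80), Srf lay at -4.41 and -3.21, Hand2 at -3.11 and -2.36 and the metabolic receptor Esrra at -1.53 and -1.49. Ppara, the fatty acid receptor that drives oxidation genes, was the high one (1.58 and 2.41), and Mef2c passed limma's test above the median (0.97 and 1.57, adjusted p = 0.0023). Of 12 eligible immediate early and short-lived regulators, 7 were low and 0 high (median -1.45), with Jund lowest (-3.59 and -4.10) and the kinase gene Sgk1, with 530.5 and 379 FPKM of footprints, highest (0.82 and 0.53). In contrast, of 16 eligible cell cycle genes, 5 were high and 0 low (median 1.26), but their median was 1.95 in replicate 1 and 0.78 in replicate 2, and 12 of the 16 had a mean RNA level under 10 FPKM, where the floor favours high TE. Rrm1, the partner subunit of Rrm2, had the highest mean centred TE of the list, with 255 and 136 FPKM on 6.81 and 6.71 (2.89 and 2.26). The D-type cyclin Ccnd2, which drives entry into the cycle, had the most footprints, 385 and 298 FPKM (1.37 and 1.07), and its relative Ccnd3 the lowest TE of the list (0.07 and -0.67).

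mRNAs with known brakes on translation were next. Of 8 eligible stress mRNAs with upstream frames, 3 were low and 1 high (median -0.98). Cebpb was the lowest (-3.40 and -3.14), and Atf4, the main factor of the integrated stress response, had 133 and 82.3 FPKM on 41.1 and 42.2 of RNA (-0.65 and -1.11, limma adjusted p = 0.012). Eprs, a tRNA synthetase, was the high one, with 321 and 363 FPKM on 17.4 and 17.5 (1.86 and 2.30). The iron list ranged widely. Ferritin heavy chain, Fth1, with an iron-responsive element at the 5′ end, had 163 and 121 FPKM on 848 and 926 of RNA (-4.72 and -5.01), and the transferrin receptor Tfrc, with such elements at the 3′ end, had 4258 and 4717 on 222 and 161 (1.92 and 2.80). Slc11a2, with its element at the 3′ end, lay at 1.13 and 0.85, and among genes with the element at the 5′ end Epas1 lay at -0.96 and -0.54, Alas2 at 0.37 and 0.61 and Slc40a1 at -0.20 and -0.61, so the genes with a 5′ element did not share a direction. Of 15 eligible selenoproteins, which need recoding of a stop codon, 4 were low and 1 high (median -0.78), with Gpx3 lowest (-2.63 and -2.71) and Txnrd1 highest (1.19 and 1.26). Gpx4, which detoxifies lipid peroxides, had the most footprints of these, 416 and 647 FPKM, and lay at -1.46 and -0.55. The median RNA level of the selenoproteins was 46.1 and 53.3 FPKM. In the 10% of eligible genes with a median RNA level of 44.3 FPKM, 25.5% were low and 12.1% high, with a median of -0.26. The low count of selenoproteins was thus near that share. Of 5 eligible polyamine genes, 3 were low and 1 high, and the median of -1.33 rests on 5 genes, of which 1 passed a floor of 50 FPKM, at 0.98. The antizyme gene Oaz2 was low (-3.39 and -3.58), the inhibitor Azin1 high (1.47 and 1.33), and Oaz1, with 327 and 458 FPKM of RNA, had 5.51 and 9.56 FPKM of footprints and missed the floor.

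Genes that mark the other cells of the heart were spread over the range of TE. Among endothelial markers, Cdh5, the adhesion protein of vessel junctions, had the most footprints, 884 and 689 FPKM (0.81 and 0.62), the sialomucin Emcn was high (1.27 and 1.58), and Egfl7, a secreted endothelial factor, had 98.1 and 67.9 FPKM on 173 and 233 of RNA and was low (-3.16 and -3.85). Pecam1, an adhesion protein of the same cells, was also low (-2.62 and -2.89). Of the pericyte and smooth muscle markers, the smooth muscle actin Acta2 had 3365 and 3959 FPKM and was high (1.41 and 1.82), with the same reserve on shared actin reads, and the channel gene Kcnj8 was low (-1.49 and -1.58). Among macrophage markers, the complement gene C1qb had the most footprints (114 and 219 FPKM), C1qa lay at -0.76 and 0.14 and the mannose receptor Mrc1 was high (1.26 and 2.62), and each had the higher footprint level in replicate 2.

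Of the remaining marker lists, the erythroid one was led by the alpha-globin gene Hba-a1, with 917 and 709 FPKM (-0.54 and -1.12), and its highest TE was that of Bpgm (0.69 and 0.73), which makes bisphosphoglycerate in red cells. Aldh1a2, which makes retinoic acid, was the only eligible epicardial marker, at 146 and 55.2 FPKM on 8.50 and 8.76 of RNA, and thus higher in replicate 1 in footprints alone. Prnp, at 66.7 and 76.5 FPKM, was the only eligible Schwann and neuronal marker and was low (-1.42 and -1.19). Plin4, a lipid droplet protein that muscle also makes, was low at -2.51 and -2.54, and the atrial marker Stard10, at 14.6 and 13.3 FPKM, had the lowest TE of the atrial list (-0.82 and -1.57).

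RNAs with no main reading frame served as a check on what a low TE looks like. Of 27 noncoding RNA genes and snoRNA hosts, 18 missed the floor of 10 FPKM, so those kept are the ones with more footprints. Of the 9 eligible, 7 were low and 0 high, with a median centred TE of -2.11. Malat1, a nuclear RNA, had 502 and 161 FPKM of footprints on 245 and 286 of RNA, and Neat1, a scaffold of nuclear bodies, lay at a centred TE of -5.47 and -5.02 with 167 and 147 FPKM of RNA. Mhrt, a cardiac RNA antisense to Myh7, lay at -1.61 and -2.38, but without the strand setting its reads cannot be told from those of Myh7. Snhg1 stood above the median (1.85 and 0.53). Eligible ribosomal protein mRNAs, with a median of -4.34, lay below the noncoding list in these values, with the named copies described above. With a floor of 1 FPKM the medians were -5.18 over 53 ribosomal protein genes and -2.81 over 19 noncoding genes. Without genes with a named copy, at the floor of 10 FPKM, they were -2.40 and -2.12. The floor selects within both lists, so no baseline was drawn from them.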

How the data were processed

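Per the submitters' processing notes, reads were handled with STAR 2.7.4a, Bowtie 1.3.1, cutadapt 3.7, FastQC 0.11.9, Cufflinks 2.2.1 and HTSeq 0.13.5 on the mouse build GRCm38 (mm10); their order, settings, strand handling and treatment of multiply mapping reads are not known here. The authors deposited FPKM values of footprints, and translation efficiencies as a ratio of those values to an RNA level. From these, implied RNA levels, centred log2 TE, shares and list medians were computed with Python 3.11.15, pandas 2.3.3 and numpy 2.4.6. Departure of TE from the library median was tested with limma 3.58.1 in R 4.3.3 (intercept-only fit of 2 libraries, eBayes with trend, two-sided, Benjamini-Hochberg over 8252 genes). In a simulation of 8252 genes, 100 were shifted by 1 and 100 by 2 on the log2 scale. The noise was normal, with a spread averaged over genes of like level. Of those shifted by 1, 58% were recovered, and of those shifted by 2, 100%, with 17 false calls among the unshifted genes. Far more genes were called in the data, and their spread was less even, so these rates need not hold there. The depth in reads is unknown. Gene symbols came from RefSeq on GRCm38.p6; 106 symbols shared by several Ensembl genes were left out. Named genes are the top 20 by footprints, the top 10 by RNA, the 15 highest and 15 lowest in TE with an RNA level of at least 1 FPKM, the 5 whose TE differed most between libraries, and members of 26 function lists and 11 marker lists, at least the extremes of each; some genes that this rule names are not reported here. The members and lists were chosen with earlier results of these data known. A comparison by coding length was not made. The alternatives tried were other floors, no centring, a pseudocount of 1, named genes only, an RNA floor, no trend, each library alone and, added after the data were seen, leaving out genes with a named processed copy.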

Additional observations from a re-analysis of the deposited data

How the results depend on the processing

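The counts of high and low TE depended on the floor and on centring. With a floor of 1 FPKM, 1948 of 12157 genes were high and 2302 low; with a floor of 50 FPKM, 400 of 3819 were high and 525 low, and limma called 1132 above and 1188 below, fewer genes being tested. The floor moved the median log2 TE of the genes by -0.27 and 0.42, in that order, so centred values are relative to the genes that passed it. Without centring, 6488 genes were high and 83 low. From 1 library alone, 1468 to 1563 were high and 1694 to 1727 low. The median centred TE of the thick filament list was 0.34 over both libraries, -0.27 with a floor of 50 FPKM, and -0.13 to 0.22 from 1 library alone. That of the calcium list was -0.072 and that of the polyamine list 0.98 (1 gene) with a floor of 50 FPKM. For these reversals the cause was not tested. Over 26 lists and their alternatives, 119 values of the median were within 1 SD of the main one, 59 moved by more and 4 were the reversals above. Lists with medians near 0 also changed sign. The complex I median of -0.13 was -0.36 and 0.18 from replicates 1 and 2 alone. It was 0.030 with a floor of 1 FPKM and 0.098 without genes with a named copy. That of the iron list, -0.16, was 0.11 with a floor of 1 FPKM and 0.10 from replicate 1 alone. That of mitochondrial ribosomal proteins, -0.05, was 0.22 with that floor, 0.034 with the pseudocount and 0.046 from replicate 2 alone. For single genes, the value from 1 library alone always lies within 1 SD of the mean of 2, so it tested nothing. With the pseudocount, 40 values of single genes were within 1 SD and 15 moved by more. Leaving out genes with a named processed copy took the median of the ribosomal protein list from -4.34 to -2.40. No paired analysis was possible because only 1 group was used. With 2 libraries of unknown read depth and no stated relation between animals and libraries, the errors cover the difference between these libraries only, and genes under 10 FPKM were left out of the calls of high and low TE.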

Other observations

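Small RNA features outside the protein-coding genes took most of the summed FPKM. The mitochondrial transfer RNA genes mt-Tm and mt-Tv were listed at 1.65922e+06 and 2.03218e+06 FPKM and at 2.00001e+06 and 1.45595e+06 FPKM in replicates 1 and 2, with a TE listed at 0. Since FPKM divides by length, a short feature reaches a given value with fewer fragments than a long one. The number of fragments behind these values is not known, and it need not be small.

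Of 1194 microRNA genes in the tables, 24 had an FPKM above 0 in both libraries and 60 in either. Mir6236 stood far above the others at 587190 and 557066 FPKM, the only feature outside the mitochondrial transfer RNA genes among the first 4, with an implied RNA level of 127 and 317 FPKM. The next, Mir8114, had 1418 and 1246 FPKM with a TE listed at 0. Mir30a, further down the list, had 757 and 176 FPKM. The mature sequences of these 3 genes from RefSeq on GRCm38.p6, with both arms of Mir30a, have the seed (bases 2 to 8) in capitals, and the 4 seeds differ.
mmu-miR-6236, chr9:110281353-110281371, plus strand: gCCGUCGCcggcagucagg
mmu-miR-8114, chr1:153899989-153900009, plus strand: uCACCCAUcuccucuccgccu
mmu-miR-30a-5p, chr1:23272274-23272295, plus strand: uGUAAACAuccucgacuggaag
mmu-miR-30a-3p, chr1:23272315-23272336, plus strand: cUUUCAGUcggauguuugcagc
The FPKM of a microRNA gene does not say whether the fragments were mature microRNAs, hairpins or other RNA of the same sequence, and no ribosome load was read from them.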
